A study of Mus musculus with 6 samples.

Results

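The HoxD cluster is a run of homeobox genes on mouse chromosome 2. Its 9 genes, Hoxd1, Hoxd3, Hoxd4, Hoxd8, Hoxd9, Hoxd10, Hoxd11, Hoxd12 and Hoxd13, were taken by symbol, and all 9 were found among the 26567 genes that could be paired with the transcripts measured. RNA was sequenced from sorted cap mesenchyme, the Six2-expressing nephron progenitors that sit around the ureteric bud tips of the fetal kidney. The compared groups were 3 libraries of homozygous Dnmt1 knockout cells (genotype Dnmt1 -/-, called KO) and 3 libraries of heterozygous cells (genotype Dnmt1 +/-, called HET). Both groups were C57BL/6 embryos at embryonic day 18.5 that carried Six2.Cre and conditional Dnmt1, so that the HET libraries have also lost 1 Dnmt1 allele in Cre-expressing cells, and no wild-type library was analysed here. Six2 drives the Cre in nephron progenitors, so other cell types in a sorted sample can keep Dnmt1. The labels do not say whether the 3 libraries of a group came from separate embryos or litters, and p-values therefore measure only the spread between these samples. The marker used for the sort is not given in the sources used here.

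Hox genes encode homeodomain transcription factors that give cells their position along the body axis, and within a cluster the genes are switched on in order, from the Hoxd1 end to the Hoxd13 end. In the mouse kidney the genes of paralogue group 11 (Hoxa11, Hoxc11 and Hoxd11) act redundantly: they work with Eya1 and Pax2 to activate Six2 and Gdnf, and their combined loss stops ureteric bud outgrowth. Dnmt1 is the enzyme that copies CpG methylation to the new DNA strand at replication. Inactive Hox genes are held by Polycomb complexes, and CpG-rich Hox promoters are usually unmethylated.

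The sequences below show how unequal the CpG content of the HoxD start sites is, for the neighbouring genes Hoxd12, Hoxd11 and Hoxd10. Of these, Hoxd11 and Hoxd10 were called lower in KO and Hoxd12 was not, and a link to CpG content was not tested. They are RefSeq promoter windows of GRCm38.p6, the assembly that mm10 is built on, from 250 bases before to 50 bases after the annotated start, on the plus strand, 5′ to 3′, with each CG in capitals. The windows lie at chr2:74674763-74675062 (Hoxd12), chr2:74679308-74679607 (Hoxd11, upstream start), chr2:74682073-74682372 (Hoxd11, second start, 2765 bases further downstream) and chr2:74691641-74691940 (Hoxd10). The RefSeq span of Hoxd10 begins further upstream, at chr2:74684273, and no window there is given.
Hoxd12: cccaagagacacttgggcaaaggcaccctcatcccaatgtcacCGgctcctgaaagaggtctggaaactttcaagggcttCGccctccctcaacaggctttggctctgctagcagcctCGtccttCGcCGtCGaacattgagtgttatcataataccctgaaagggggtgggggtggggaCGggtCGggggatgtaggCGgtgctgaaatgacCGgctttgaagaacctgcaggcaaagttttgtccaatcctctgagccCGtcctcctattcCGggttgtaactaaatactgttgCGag
Hoxd11 upstream start: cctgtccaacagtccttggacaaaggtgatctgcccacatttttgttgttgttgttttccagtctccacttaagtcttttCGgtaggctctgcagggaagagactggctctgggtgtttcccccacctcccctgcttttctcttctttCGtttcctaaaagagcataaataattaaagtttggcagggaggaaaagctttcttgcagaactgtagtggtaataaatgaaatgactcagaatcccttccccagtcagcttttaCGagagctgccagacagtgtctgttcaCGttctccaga
Hoxd11 second start: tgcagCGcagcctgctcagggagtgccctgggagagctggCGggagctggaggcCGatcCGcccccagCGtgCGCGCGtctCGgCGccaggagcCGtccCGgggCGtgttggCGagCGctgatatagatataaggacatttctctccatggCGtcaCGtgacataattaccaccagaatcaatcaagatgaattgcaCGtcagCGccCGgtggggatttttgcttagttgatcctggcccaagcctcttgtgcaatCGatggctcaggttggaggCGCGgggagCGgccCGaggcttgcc
Hoxd10: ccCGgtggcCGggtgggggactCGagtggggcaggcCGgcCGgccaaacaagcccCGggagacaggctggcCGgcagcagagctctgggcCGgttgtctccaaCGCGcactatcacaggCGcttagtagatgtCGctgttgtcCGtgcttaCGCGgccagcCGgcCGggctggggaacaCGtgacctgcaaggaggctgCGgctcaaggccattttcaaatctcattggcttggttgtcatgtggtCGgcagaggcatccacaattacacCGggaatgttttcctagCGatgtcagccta

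The Hoxd12 window holds 13 CG, and its observed-to-expected CpG ratio (CG counted, over the number its C and G content would give) is 0.57. The upstream Hoxd11 window holds 4 CG (ratio 0.26), while the second Hoxd11 window holds 25 (ratio 0.88) and the Hoxd10 window 22 (ratio 0.75). Over the 32851 RefSeq windows of the same length the median was 7 CG and the median ratio 0.38. A ratio over 0.6 was reached by 35.8% of all windows and by 5 of the 10 HoxD windows, those of Hoxd1, Hoxd3, Hoxd10, Hoxd13 and the second Hoxd11 start. The lowest CG count, 4, was shared by the upstream Hoxd11 window and Hoxd4, and the highest was 37, in Hoxd13. The letters TATAAA, searched on both strands, were found in the Hoxd13 and Hoxd4 windows, against 13.6% of all windows. DNA methylation itself was not measured in these libraries.

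The libraries held 46741667 to 61585484 estimated counts, of which 92.4% to 92.82% fell on transcripts paired with a gene, and HoxD genes took 9437.2 to 9775.2 of these counts in KO libraries and 12396.7 to 16974.6 in HET libraries. A count of 3 corresponds to 0.051 to 0.0662 CPM (counts scaled to a common library size). Dnmt1 was at 20.9, 18.6 and 14.9 CPM in KO libraries 1, 2 and 3, against 40.0, 52.4 and 51.7 CPM in HET libraries 1, 2 and 3 (log2 fold change -1.41 ± 0.15 SE; edgeR adjusted p = 0.000264). The cap mesenchyme markers summed to 1368 to 1665 CPM in KO libraries and 1914 to 2007 CPM in HET libraries. Markers of other cell types were unevenly spread over the KO libraries: endothelial markers summed to 229, 99.6 and 58.3 CPM in KO 1, 2 and 3, against 38.4 to 52.5 CPM in HET libraries, stromal markers to 1328, 646 and 521 CPM against 472 to 550 CPM, and ureteric bud markers to 267, 147 and 79.8 CPM against 53.6 to 96.4 CPM. In each of those 3 lists 1 gene was called higher in KO (Emcn of 11 endothelial genes tested, Lum of 12 stromal genes, Ret of 12 ureteric genes) and none lower, against 4.92% called higher and 1.92% lower over all genes tested. Since these are bulk samples, fewer cells of a type and less RNA per cell cannot be told apart.

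In Dnmt1 KO cap mesenchyme, 3 of the 8 HoxD genes that could be tested were lower than in HET: Hoxd10, Hoxd11 and Hoxd4. None was higher, and 5 did not pass the test. At an unadjusted p under 0.05 Hoxd13 alone counted as higher, and DESeq2 and limma voom called no member higher. Hoxd10 and Hoxd11 were at 0.516 and 0.578 of their HET levels, and as the most abundant genes of the cluster they accounted for most of the loss of HoxD RNA. Their neighbours on either side, Hoxd12 and Hoxd9, did not pass, and the terminal genes Hoxd13 and Hoxd1 were near the detection limit in both groups. Over all 16989 genes tested, 1.92% were called lower and 4.92% higher, 6.85% in all (edgeR's quasi-likelihood test, Benjamini-Hochberg adjustment over all of these genes, threshold 0.05).

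The genes at the Hoxd13 end come first. Hoxd13 patterns digits and genitalia and is the last gene of the cluster to be activated in limbs. It was at 0.573, 0.849 and 0.138 CPM in KO libraries 1, 2 and 3, and at 0.253, 0.102 and 0.155 CPM in HET libraries. KO 1 and KO 2 lay above all HET libraries and KO 3 lay among them, with 7 to 44 counts per KO library and 6 to 13 per HET library. The fitted log2 fold change was 1.61 ± 0.68 (edgeR adjusted p = 0.203), and it ranged from 1.06 to 2.06 when single libraries were left out.

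Hoxd12, another gene of the distal cluster end, was at 31.3, 34.5 and 36.5 CPM in KO libraries and at 31.2, 29.8 and 29.2 CPM in HET libraries. The groups did not overlap, but KO 1 and HET 1 differed by less than the spread within either group, and the gene did not pass (log2 fold change 0.18 ± 0.10; edgeR adjusted p = 0.304). In none of the 16 alternative analyses did it pass.

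Hoxd11, the HoxD gene with an established role in metanephric induction, was at 72.5, 72.2 and 77.1 CPM in KO libraries and at 139, 126 and 119 CPM in HET libraries. The KO libraries lay close together and all below the HET libraries. The log2 fold change was -0.79 ± 0.08 (edgeR adjusted p = 0.000233), and by p it ranked 8th among the 8559 genes with a negative fold change. The call was kept in all 16 alternatives, with log2 fold changes of -0.96 to -0.73.

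Hoxd10, which patterns hindlimb and lumbosacral nerve levels in the mouse, was at 44.7, 35.2 and 36.7 CPM in KO libraries and at 78.5, 76.3 and 71.4 CPM in HET libraries. Again the groups were well apart, and the highest KO library, KO 1, was also the one with most endothelial and stromal marker RNA. A link between Hoxd10 and this marker RNA was not tested. The log2 fold change of Hoxd10 was -0.96 ± 0.10 (edgeR adjusted p = 0.000287), the most negative of the cluster. Without KO 1 it was -1.06, and over all 16 alternatives it stayed called with values of -1.11 to -0.88.

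**Figure D1:**
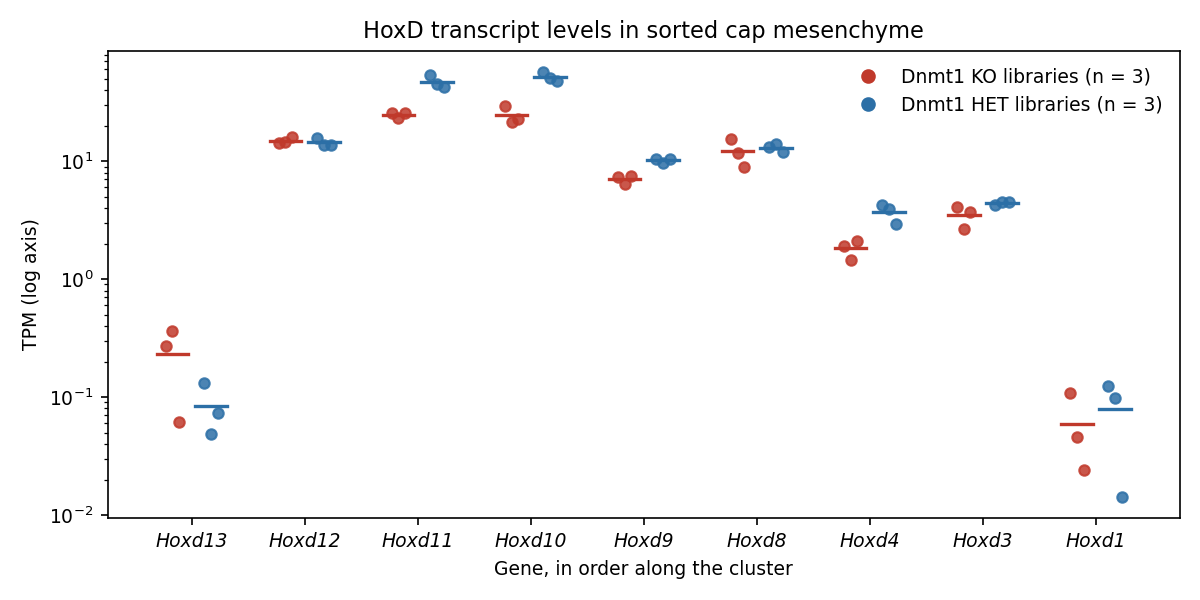
TPM of each HoxD gene (log axis) in the 3 Dnmt1 KO libraries (red, left of each pair) and the 3 Dnmt1 HET libraries (blue), in order along the cluster; points are libraries and bars are group means. Hoxd11 and Hoxd10 average 24.7 and 24.6 TPM in KO libraries against 47.0 and 51.8 TPM in HET libraries, while Hoxd12 and Hoxd8 lie at similar heights in both groups.

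Hoxd9, which acts in the proximal limb and lumbar region, was at 13.3, 12.7 and 14.3 CPM in KO libraries and at 17.1, 17.4 and 18.5 CPM in HET libraries. Every KO library was below every HET library. With a log2 fold change of -0.39 ± 0.11 it did not pass (edgeR adjusted p = 0.0730). It did pass in 4 of the 16 alternatives, among them the DESeq2 test (adjusted p = 0.0296).

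Hoxd8, a gene of the cluster's centre, was at 27.3, 20.9 and 17.1 CPM in KO libraries and at 21.6, 24.7 and 20.7 CPM in HET libraries. The groups overlapped fully, with the HET values inside the KO range, and the log2 fold change was -0.03 ± 0.16 (edgeR adjusted p = 0.923). Its order over the KO libraries, KO 1 above KO 2 above KO 3, was also that of the endothelial, stromal and ureteric marker sums, whose part in this was not tested. Without KO 1 the log2 fold change was -0.22 (edgeR adjusted p = 0.433).

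Hoxd4, an anterior Hox gene that patterns the hindbrain and the neck vertebrae, was at 4.2, 3.45 and 4.60 CPM in KO libraries and at 8.44, 7.38 and 6.16 CPM in HET libraries. The groups did not overlap, and the gene was called lower (log2 fold change -0.84 ± 0.21; edgeR adjusted p = 0.0360). That call rests on few counts, 179.4 to 233.7 in KO libraries and 279.3 to 434.3 in HET libraries, and it was lost when any library other than KO 3 was left out: the adjusted p was then 0.0604 without KO 1, 0.145 without KO 2, 0.109 without HET 1, 0.112 without HET 2 and 0.0512 without HET 3. It was also lost with sex as a covariate (adjusted p = 0.0653).

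Hoxd3, whose product takes part in patterning the first neck vertebrae, was at 6.11, 5.11 and 5.56 CPM in KO libraries and at 6.40, 7.33 and 8.41 CPM in HET libraries. The groups did not overlap, though KO 1 and HET 1 were close, and the log2 fold change of -0.40 ± 0.18 did not pass (edgeR adjusted p = 0.235). Hoxd3 and Hoxd4 overlap on the chromosome: in RefSeq the Hoxd3 span, chr2:74711993-74748271, contains that of Hoxd4, chr2:74721978-74729160. Of the stretches of 31 bases in the main Hoxd4 transcript, 64.9% also occur in transcripts of other genes, Hoxd3 among them, so the split of reads between the pair is uncertain. Summed as 1 gene, a step added after seeing the data, the pair was at 10.3, 8.56 and 10.2 CPM in KO libraries and at 14.8, 14.7 and 14.6 CPM in HET libraries. The log2 fold change of the sum was -0.60 ± 0.13 (edgeR adjusted p = 0.0197), and the call was lost without KO 2 (0.0961), HET 2 (0.0783) or HET 3 (0.0689).

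Hoxd1, the gene at the anterior end, which acts in hindbrain and sensory neurons, had 8, 4 and 2 counts in KO libraries and 9, 9 and 1 in HET libraries. The groups overlapped, and the gene fell below the filter on low counts and was not tested.

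Of the 8 tested genes, 5 had all KO libraries below all HET libraries (Hoxd3, Hoxd4, Hoxd9, Hoxd10 and Hoxd11), a pattern seen in 14.2% of all genes tested. With Hoxd12, whose KO libraries all lay above, 6 of the 8 had no overlap in either direction, against 29.0% of all genes. The median log2 fold change of the 8 was -0.40, against 0.00 over all genes. The changes were not uniform along the chromosome. The most negative values stood at Hoxd10, Hoxd4 and Hoxd11. Hoxd12, the next gene from Hoxd11 toward the Hoxd13 end, had a positive value, and Hoxd8 lay between the decreased Hoxd10 and Hoxd11 on 1 side and Hoxd4 on the other.

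**Figure D2:**
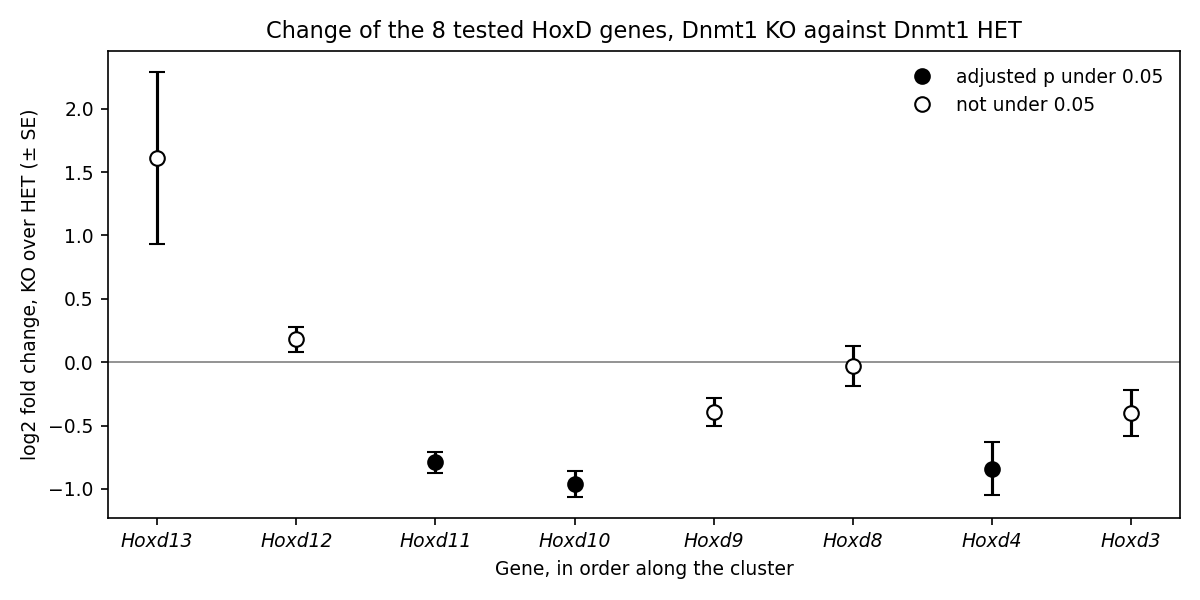
Fitted log2 fold change of KO over HET, with its standard error, for the 8 tested HoxD genes in order along the cluster; filled points have an adjusted p under 0.05. Hoxd11, Hoxd10 and Hoxd4 are filled, at -0.79, -0.96 and -0.84, and Hoxd12 next to Hoxd11 is at 0.18.

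Levels of different genes can be set side by side only per length, in TPM. In KO libraries Hoxd11 (24.7 ± 1.22 TPM, SD, n = 3) and Hoxd10 (24.6 ± 4.32 TPM) came first, followed by Hoxd12 (15.0 ± 0.854 TPM), Hoxd8 (12.1 ± 3.30 TPM), Hoxd9 (7.10 ± 0.596 TPM), Hoxd3 (3.48 ± 0.722 TPM) and Hoxd4 (1.82 ± 0.344 TPM). In HET libraries the order began with Hoxd10 (51.8 ± 4.75 TPM) and Hoxd11 (47.0 ± 6.10 TPM), and went on with Hoxd12 (14.4 ± 1.20 TPM), Hoxd8 (13 ± 1.11 TPM), Hoxd9 (10.2 ± 0.413 TPM), Hoxd3 (4.45 ± 0.141 TPM) and Hoxd4 (3.68 ± 0.677 TPM). Hoxd13 and Hoxd1 were at or below 0.366 TPM in every library. In both groups the libraries of Hoxd10 and Hoxd11 overlapped each other, as did those of Hoxd12 and Hoxd8 and those of Hoxd13 and Hoxd1. The other neighbours in the order did not overlap. Overlap across libraries does not show that 2 genes are equal, since both are measured in each library. Within libraries, Hoxd10 was above Hoxd11 in every HET library (56.98, 50.75 and 47.65 against 53.86, 44.7 and 42.3 TPM), but in KO libraries only in KO 1. Hoxd13 was above Hoxd1 in every KO library, both near the detection limit, and below it in HET 2.

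The whole cluster summed to 98.5, 81.9 and 86.9 TPM in KO libraries and to 159, 142 and 133 TPM in HET libraries, a mean 38.4% lower in KO. TPM values are not corrected for composition. The CPM sum averaged 192 in KO libraries and 288 in HET libraries, 33.3% lower in KO. Hoxd10 and Hoxd11 together made up 55.4 ± 0.727% of the TPM sum in KO libraries and 68.2 ± 1.32% in HET libraries (SD, n = 3 each). The share of Hoxd12 was 16.9 ± 2.03% in KO libraries and 9.96 ± 0.219% in HET libraries, at a TPM level that was about the same in both. For both shares the groups did not overlap.

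**Figure D3:**
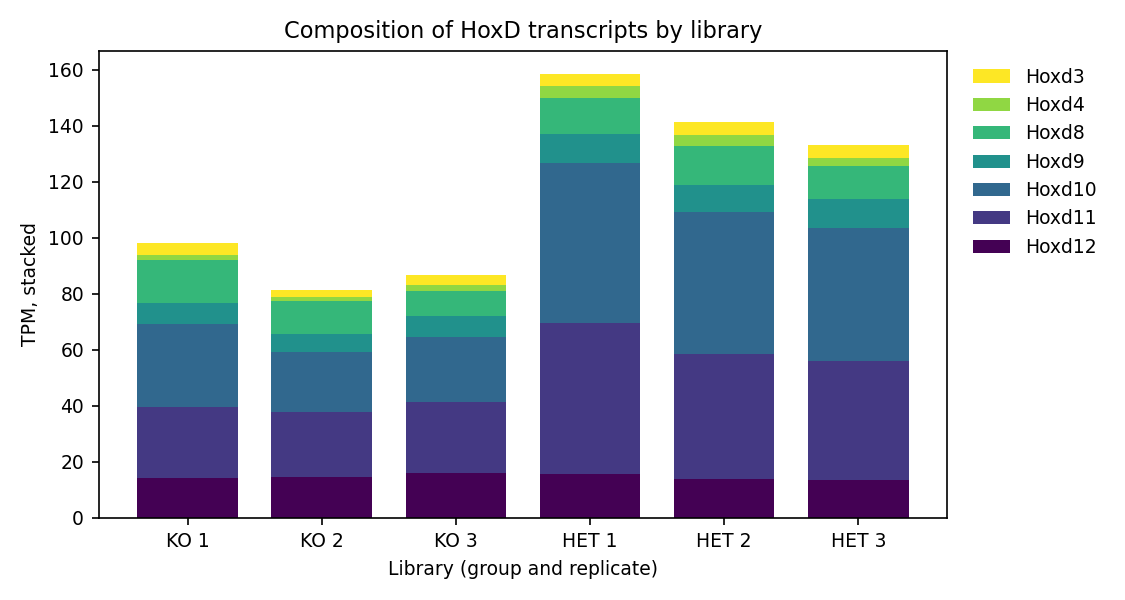
TPM of 7 HoxD genes stacked by library, Dnmt1 KO libraries on the left and Dnmt1 HET libraries on the right; Hoxd1 and Hoxd13 are too low to be drawn. The Hoxd10 and Hoxd11 blocks are smaller in every KO library, while the Hoxd12 block at the base is of similar height, 14.4 to 15.9 TPM in KO and 13.6 to 15.8 TPM in HET libraries.

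A ratio of 2 genes within a library does not depend on how libraries are scaled. Of the 7 ratios of adjacent tested genes, 3 separated the groups completely. Each of these 3 includes a gene already called lower, and the rate of such separation among other gene pairs is not given here. The log2 ratio of Hoxd12 to Hoxd11 was -1.21, -1.06 and -1.08 in KO libraries and -2.16, -2.08 and -2.03 in HET libraries, a difference of 0.97. The log2 ratio of Hoxd10 to Hoxd9 was 1.74, 1.48 and 1.36 in KO libraries and 2.20, 2.14 and 1.95 in HET libraries, a difference of -0.57. That of Hoxd8 to Hoxd4 was 2.70, 2.60 and 1.90 in KO libraries and 1.35, 1.74 and 1.75 in HET libraries, a difference of 0.79. The log2 ratio of Hoxd11 to Hoxd10 overlapped, at 0.93 ± 0.21 in KO libraries and 0.76 ± 0.06 in HET libraries (SD, n = 3 each). With 3 libraries against 3 the 2-sided exact permutation test cannot go below p = 0.1, which each of the 3 separated ratios reached (adjusted over 7 ratios, 0.233).

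Relative to cap mesenchyme marker RNA, the decreases of Hoxd10 and Hoxd11 were smaller. The percentages that follow are of CPM, not corrected for length, so they compare libraries and not the levels of different genes. Hoxd11 equalled 5.30, 4.69 and 4.63% of the summed cap mesenchyme markers in KO libraries and 7.28, 6.38 and 5.93% in HET libraries. Hoxd10 equalled 3.27, 2.29 and 2.20% in KO libraries and 4.10, 3.87 and 3.56% in HET libraries. Neither overlapped. The marker sum includes Wt1 and Cited1, which were themselves called lower in KO (log2 fold changes -0.74 and -0.90; edgeR adjusted p = 0.00723 and 0.0344). The list did not fall as a whole. Of its 12 genes 2 were called lower, 1 was called higher and 9 did not pass, and 8 had a negative log2 fold change. Set against Six2 alone, which did not pass (log2 fold change -0.29 ± 0.13; edgeR adjusted p = 0.230), both genes overlapped between groups: Hoxd11 equalled 96.8, 68.6 and 80.5% of the Six2 CPM in KO libraries and 139, 110.4 and 96.2% in HET libraries, so that KO 1 lay just above HET 3. On the TPM scale Hoxd11 averaged below Six2, at 24.7 against 48.8 TPM in KO libraries and 47.0 against 65.0 TPM in HET libraries. Hoxd9 against the marker sum was at 0.886 ± 0.0798% in KO libraries and 0.90 ± 0.0218% in HET libraries, with overlap. Hoxd12 was higher in KO on both scales, without overlap. Both the marker sum and Six2 averaged lower in KO, so a gene that does not change also rises on these scales. Hoxd12 itself did not pass, and the share of all genes that rise in this way is not given here. Hoxd12 was at 2.24 ± 0.0465% of the marker sum in KO libraries and 1.53 ± 0.0888% in HET libraries. Against Six2 it was at 37.5 ± 4.48% and 27.0 ± 3.88%.

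The deposited values are per transcript, and 19 of the 20 annotated HoxD transcripts were listed. Hoxd11 reads were assigned almost wholly to 1 transcript, Hoxd11-002, listed as 3367 bases long and annotated as a processed transcript, which held 98.5% to 98.9% of the Hoxd11 counts. It was called lower (log2 fold change -0.72 ± 0.08; edgeR adjusted p = 0.00613), as was the only Hoxd10 transcript, Hoxd10-001 (-0.89 ± 0.11; adjusted p = 0.00902). The protein-coding transcript Hoxd11-001 had 40.2 to 55.9 counts in KO libraries and 74.9 to 113.8 in HET libraries, did not overlap, and did not pass (-0.95 ± 0.26; edgeR adjusted p = 0.186). Of the other HoxD transcripts 12 did not pass and 4 were not tested, and none was called higher, against 0.199% of 50137 transcripts called lower and 1.59% called higher overall. Most Hoxd4 counts, 91.5% to 100% in KO libraries and 81.2% to 100% in HET libraries, lay on Hoxd4-201, which did not pass on its own (-0.72 ± 0.20; edgeR adjusted p = 0.195). The call of Hoxd10-001 was lost without KO 2 (adjusted p = 0.0560) or KO 3 (0.0520), while that of Hoxd11-002 was kept without any single library. The RefSeq spans of Hoxd10 (chr2:74684273-74695106) and Hoxd11 (chr2:74679558-74687016) overlap. In GENCODE vM1 sequences, Hoxd10-001 shares no stretch of 31 bases with a scanned transcript of another gene and Hoxd11-002 shares 1.3%. Those sequences are 2651 and 4257 bases long, against listed lengths of 1816 and 3367 bases. Sharing in the sequences that were quantified is therefore not known exactly. Whether strand was used is not known, so antisense RNA from the cluster cannot be told apart.

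The paralogues of the 3 called genes, in the HoxA, HoxB and HoxC clusters, did not all follow them. In paralogue group 10, Hoxa10 was at 175, 177 and 158 CPM in KO libraries and 276, 258 and 259 CPM in HET libraries (log2 fold change -0.64 ± 0.08; edgeR adjusted p = 0.000645). Hoxc10 was at 266, 334 and 316 CPM in KO libraries and 429, 462 and 418 CPM in HET libraries (-0.51 ± 0.10; edgeR adjusted p = 0.00998). All 3 members of this group were thus lower in KO. Their TPM summed to 329.5 ± 5.90 in KO libraries and 544 ± 34.9 in HET libraries, and Hoxd10 supplied 8.99, 6.35 and 7.08% of it in KO libraries and 9.81, 9.40 and 9.31% in HET libraries.

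In paralogue group 11 only Hoxd11 was called. Hoxa11 was at 19.5, 20.0 and 15.9 CPM in KO libraries and 19.8, 24.9 and 24.2 CPM in HET libraries, with KO 2 just above HET 1 (log2 fold change -0.31 ± 0.13; edgeR adjusted p = 0.209). Hoxc11 was at 18.1, 18.2 and 15.4 CPM in KO libraries and 15.6, 13.1 and 16.0 CPM in HET libraries (0.21 ± 0.13; edgeR adjusted p = 0.383). Hoxd11 was the largest contributor to the group, with 54.8, 54.6 and 60.5% of its TPM in KO libraries and 71.4, 67.9 and 65.1% in HET libraries. The group's TPM summed to 43.8 ± 2.20 in KO libraries and 68.8 ± 5.83 in HET libraries, with no overlap. Differences in fold change between paralogues were not tested.

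In paralogue group 4, Hoxc4 was called lower (log2 fold change -0.60 ± 0.14; edgeR adjusted p = 0.0273), while Hoxa4 (-0.32 ± 0.25; adjusted p = 0.491) and Hoxb4 (-0.13 ± 0.10; adjusted p = 0.482) did not pass. Hoxd4 held 9.14 ± 1.23% of the group's TPM in KO libraries and 12.95 ± 1.53% in HET libraries. Across the other 3 clusters, 10 of 28 tested gene entries were called lower and none higher (1, Hoxb8, at an unadjusted p under 0.05, and none by DESeq2 or limma voom). Over all genes tested, 1.92% were called lower and 4.92% higher. The entries called lower were 4 of 11 in HoxA, 1 of 9 in HoxB and 5 of 8 in HoxC. The median log2 fold changes of these clusters were -0.44, -0.22 and -0.53, beside -0.40 in HoxD. All 4 medians were negative in all 16 alternatives as well.

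**Figure D4:**
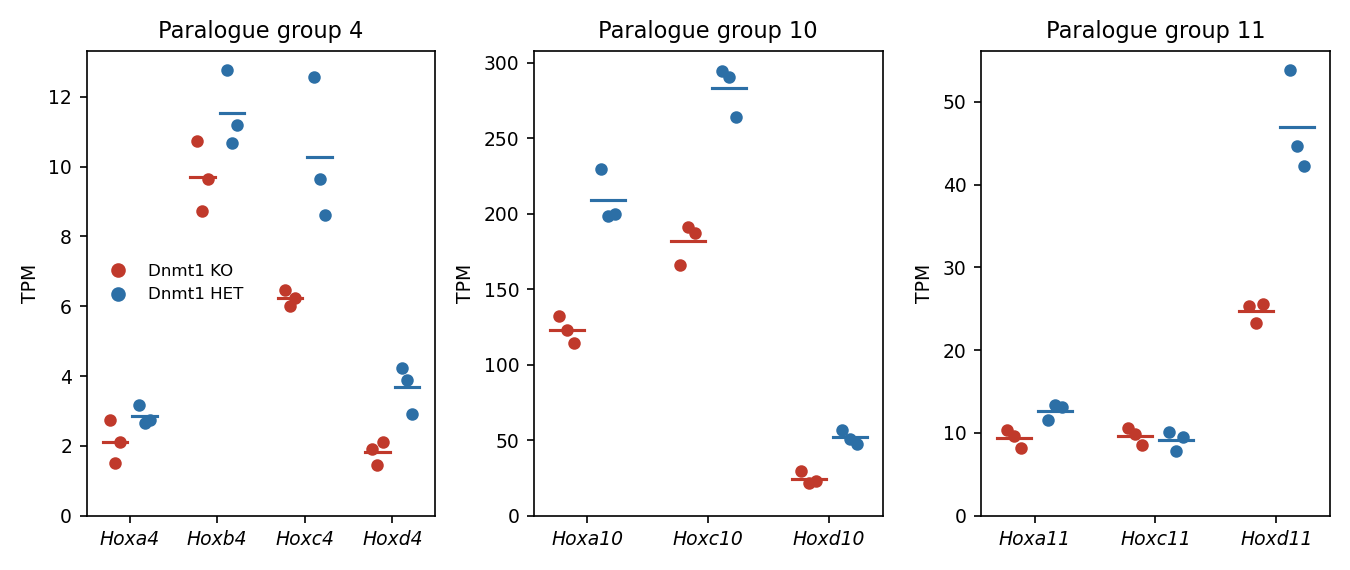
TPM of the genes of paralogue groups 4, 10 and 11 in Dnmt1 KO libraries (red, left) and Dnmt1 HET libraries (blue); points are libraries and bars are group means. In group 10 all genes are lower in KO, and in group 11 Hoxd11 is lower. Hoxa11 lies at 8.14 to 10.3 TPM in KO and 11.5 to 13.4 TPM in HET libraries. Its groups do not overlap on this scale, but they overlap in CPM and the gene did not pass. Hoxc11 lies at 8.56 to 10.6 TPM in KO and 7.75 to 10.1 TPM in HET libraries, with overlap.

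Hox proteins bind DNA together with TALE homeodomain cofactors. None of the cofactor genes given here was called by edgeR, DESeq2 or limma voom, while Meis2 and Pknox1 were lower at an unadjusted edgeR p under 0.05. The log2 fold changes were -0.17 ± 0.10 for Pbx2, -0.17 ± 0.15 for Pbx3, 0.15 ± 0.26 for Pbx4, 0.36 ± 0.20 for Meis1, -0.26 ± 0.09 for Meis2, 0.50 ± 0.36 for Meis3, -0.27 ± 0.11 for Pknox1 and -0.35 ± 0.38 for Pknox2. Meis2 was the most abundant of these, at 247, 244 and 265 CPM in KO libraries and 341, 296 and 271 CPM in HET libraries.

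Among the partners and targets of Hox11 proteins, Eya1, Itga8, Six2, Pax2 and Gdnf did not pass. Eya1, the phosphatase and coactivator of the Hox11 complex, was at 111, 135 and 140.0 CPM in KO libraries and 187, 160 and 162 CPM in HET libraries (log2 fold change -0.40 ± 0.11; edgeR adjusted p = 0.0519). Itga8, an integrin of the metanephric mesenchyme, had -0.40 ± 0.12 (edgeR adjusted p = 0.0761) and also did not overlap. DESeq2 called Eya1 and Itga8 lower, limma voom neither. Pax2, the other partner, had a log2 fold change of 0.06 ± 0.09, and Gdnf, the ligand of Ret, 0.03 ± 0.11.

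Chromatin regulators of Hox clusters showed few calls. Of 27 Polycomb genes tested, 1 was lower and none higher by edgeR, against 1.92% lower and 4.92% higher over all genes tested. At an unadjusted p under 0.05, 5 were lower (Aebp2, Mtf2, Pcgf2, Rbbp7 and Suz12) and 2 higher (Bmi1 and Cbx7). The share of all genes at that unadjusted threshold is not given here. Counts at it, for this and every other list, therefore cannot be set against a background. DESeq2 called Aebp2 and Rbbp7 lower and Bmi1 higher, and limma voom called Rbbp7 lower and none higher. The lower one, Rbbp7, a histone-binding subunit shared by several complexes, was at 174, 178 and 179 CPM in KO libraries and 270.0, 237 and 216 CPM in HET libraries (log2 fold change -0.44 ± 0.09; edgeR adjusted p = 0.0154). Of 16 trithorax and looping genes, Ash2l, a core subunit of histone H3 methyltransferase complexes, was higher in KO, at 45.8, 42.2 and 41.1 CPM, against 34.5, 33.9 and 28.8 CPM in HET libraries (0.41 ± 0.10; edgeR adjusted p = 0.0376). None of that list was called lower by edgeR or limma voom, while Ash1l and Smc3 were lower at an unadjusted p under 0.05 and DESeq2 called Smc3 lower. Median log2 fold changes were -0.07 for the Polycomb list and -0.02 for the trithorax and looping list.

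Genes around the cluster were not called. Within 500 kb of its ends, 9 genes were in the files, 6 were tested and none was called by edgeR, DESeq2 or limma voom. At an unadjusted edgeR p under 0.05, Gm14425 was lower and Gm13654 higher. The nearest gene beyond Hoxd13, Evx2, a homeobox gene at chr2:74652989-74661520, had 0, 2 and 0 counts in KO libraries and 9, 3 and 1 in HET libraries and was not tested. The nearest beyond Hoxd1, Mtx2, a mitochondrial import gene at chr2:74825812-74876748, was at 18.0, 15.7 and 17.1 CPM in KO libraries and 19.0, 17.4 and 18.2 CPM in HET libraries (log2 fold change -0.11 ± 0.11; edgeR adjusted p = 0.608). No other paired gene started inside the cluster. Which genes lay around or inside it was read from GENCODE vM1 positions, which are on another build than the RefSeq spans printed here. In RefSeq the cluster spans 96.9 kb, chr2:74668225-74765142, and also holds Mir10b, at chr2:74726070-74726137.

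The mean profile of the 8 tested members, as z-scores of log2(CPM + 1), was -0.18, -0.45 and -0.52 in KO libraries and 0.44, 0.41 and 0.30 in HET libraries. Over these 6 libraries and 9163 tested non-Hox genes averaging 10 CPM or more, the closest profiles by Pearson's r were those of Klf3 (0.999), Mum1l1 (0.999), Dtx3 (0.996), Lats2 (0.995) and Glud1 (0.995). Klf3, for example, was at 57.5, 51.6 and 50.0 CPM in KO libraries and 74.4, 73.9 and 71.7 CPM in HET libraries. The first 4 were called lower, with log2 fold changes of -0.47 to -0.71, and Glud1 did not pass (-0.23 ± 0.08; edgeR adjusted p = 0.119). With 6 points in 2 groups, all from the same libraries, these correlations largely restate the difference between the groups.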

How the data were processed

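RNA-seq libraries of sorted cap mesenchyme, 3 Dnmt1 KO and 3 Dnmt1 HET, were made from 50 ng of RNA each (labels' protocols name ultra low RNA sequencing on a HiSeq2000). For every library the authors deposited estimated counts, TPM (a share per length, scaled to the library) and effective length of 96626 transcripts, per the file headers. kallisto and the build mm10 are named in the submitters' processing notes; the sources used here do not give its version, the annotation release, trimming or strandedness. GENCODE vM1 transcript identifiers paired 74519 transcripts with genes; the 22107 others entered only the transcript test. Promoter windows, gene spans and sequences are from RefSeq on GRCm38.p6.

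Deposited estimated counts were added up within each gene, then rounded. Groups were compared with edgeR's quasi-likelihood test (edgeR 4.0.16, R 4.3.3) with TMM, filterByExpr and robust dispersions, without covariates, adjusted by Benjamini-Hochberg over 16989 genes at 0.05, and likewise per transcript over 50137 transcripts; it was tested on simulated counts. CPM values use TMM library sizes. TPM values are the deposited ones, summed per gene; they are not corrected for composition. Ratios within libraries were compared with a 2-sided exact permutation test. Alternatives used limma 3.58.1, DESeq2 1.42.0 and log2(TPM + 1) or log2(TPM + 0.1) of genes with a mean of at least 1 TPM. Shared stretches of 31 bases were counted in GENCODE vM1 sequences over 50765 annotated transcripts, fewer than the 74519 paired with genes.

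Named genes were all 9 members, the nearest neighbours, paralogues of called members, all genes of lists with 9 or fewer, up to 4 called genes of each longer list, and the 5 closest profiles. Some genes of these lists are not reported here. The members and all lists were chosen with earlier results of these data known. Of the marker lists, macrophage, nephron epithelium, podocyte and erythroid markers were also run: 0 of 12, 2 of 12 (Pax8 and Lrp2), 0 of 12 and 0 of 6 were called higher in KO, and 0, 0, 3 and 0 were called lower. The shares over all genes tested were 4.92% higher and 1.92% lower. Of the erythroid genes, 3 were not found. Libraries KO 2, HET 1 and HET 3 carried Y-linked RNA, of which no gene in a list of 4 was called.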

Additional observations from a re-analysis of the deposited data

How the results depend on the processing

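Hoxd10 and Hoxd11 were called lower in all 16 alternative gene-level analyses, and no HoxD gene was called higher in any of them; Hoxd4 lost its call in 7 and Hoxd9 gained one in 4 (library totals, DESeq2 and both TPM scales). The sign of Hoxd8 turned, never past the threshold, to 0.02 with a transcript length offset and to 0.04, 0.00 and 0.11 without HET 2, KO 2 and KO 3 (range without single libraries -0.22 to 0.11). Transcript Hoxd8-001 turned to 0.02 with DESeq2 size factors and to 0.08, 0.03 and 0.14 without HET 2, KO 2 and KO 3 (range -0.18 to 0.14), Hoxd3-004 to 0.06 and 0.16 without HET 1 and KO 2 (range -1.37 to 0.16), and Hoxd4-001 to 0.30 without HET 2 (range -7.76 to 0.30); none was called. The 2 HoxD transcripts called lower became 1 without KO 2 or KO 3, and 0 with a replicate block. Same-numbered libraries did not deviate together (correlations -0.058, -0.048 and -0.031), so the numbers were not taken as pairs; with the block, 2 HoxD genes were called lower, Hoxd4 having an adjusted p of 0.0777. The number of genes called lower over all genes, 327, was 1883 with library totals, 624 with DESeq2, 660 and 646 on the TPM scales, 162 with sex as a covariate, and 170, 171 and 116 without HET 2, HET 3 and KO 2. The number called higher, 836, was 1315 with DESeq2, 442 and 436 on the TPM scales and 526 without KO 2. Over transcripts the 100 called lower became 12 with the block and 37 to 65 without single libraries, and the 795 called higher 200 with the block and 363 to 488 without single KO libraries. The median log2 fold change of all genes was -0.17 with library totals and -0.14 and -0.13 with TPM + 0.1 and TPM + 1, so changes on those scales are read against that shift. All 7 within-library ratios kept their direction as TPM ratios and without any single library. Hoxd13, under 1 TPM, had no value on the TPM scales. The causes were not tested. Depth limits Hoxd1 and Hoxd13, and intervals were not computed for them.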
